A study of Homo sapiens with 6 samples.

Results

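The accessible chromatin around PDX1, NKX6-1, NKX2-2, ISL1 and MNX1, 5 genes that encode homeodomain transcription factors of the pancreatic beta cell, was compared between senescent and non-senescent EndoC-βH3 cells. A region was counted as a promoter region of one of these genes when it overlapped the 2 kb on either side of the start site of one of its protein-coding transcripts, and as a distal region when it was no promoter region and the protein-coding start site nearest to its midpoint, within 100 kb, belonged to one of the 5. This gave 73 regions of the 108542 in the table, namely 10 promoter regions and 63 distal regions, set against 20094 promoter and 55158 distal regions of all protein-coding genes. EndoC-βH3 is 1 human beta cell line, made from a fetal pancreas, that was immortalized with hTERT and the SV40 Large T antigen and carries a CreER recombinase. The senescent group spent 3 weeks in 4-hydroxy tamoxifen (4-OHT), which activates CreER so that both transgenes are excised. The non-senescent group is the same line without 4-OHT, so it carries CreER as well and still makes the Large T antigen, which binds p53 and Rb. Each group had 3 ATAC-seq libraries of 100000 cells, and 4-OHT treatment, loss of the transgenes and senescence cannot be told apart in this design. Nothing in the labels says that the replicates are separate cultures, so the errors may describe technical spread alone.

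ATAC-seq uses the Tn5 transposase to cut DNA that is not wrapped in nucleosomes, and the reads that fall in a region measure how open it is. PDX1 is needed for the pancreas to form and, in the adult, for transcription of the insulin gene. NKX2-2 and NKX6-1 act in the progenitors of endocrine cells and keep the identity of mature beta cells, MNX1 is required for beta cells to form and to stay distinct from other endocrine cells, and ISL1 is a LIM homeodomain factor shared by all islet endocrine cell types. Many homeodomain factors bind short AT-rich sites, and their own genes are known to be controlled by regions far from the start site as well as by the promoter.

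The sequence at the centre of 8 of these regions is printed here because these are the regions on which the results turn: the strongest promoter region, and for each gene the distal regions with the clearest change. Each is a window of 300 bases of the plus strand of hg38, 5′ to 3′, around the middle of the region, since peak summits were not used. Capitals mark matches, on either strand, to 6 short strings that stand for factor families (listed with their frequencies further on), and a window in lower case throughout holds none of them. Positions in kb are counted from the start site of the gene to the middle of the region, in the direction of transcription, so that negative positions lie upstream.
PDX1 at −2.2 kb, chr13:27917665-27917964: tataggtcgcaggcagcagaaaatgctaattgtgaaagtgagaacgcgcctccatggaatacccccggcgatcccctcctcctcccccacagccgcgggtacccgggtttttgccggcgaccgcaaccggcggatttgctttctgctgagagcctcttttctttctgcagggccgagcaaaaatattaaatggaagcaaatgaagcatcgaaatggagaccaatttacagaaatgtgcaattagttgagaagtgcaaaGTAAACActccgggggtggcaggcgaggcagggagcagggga
PDX1 at +8.8 kb, chr13:27928644-27928943: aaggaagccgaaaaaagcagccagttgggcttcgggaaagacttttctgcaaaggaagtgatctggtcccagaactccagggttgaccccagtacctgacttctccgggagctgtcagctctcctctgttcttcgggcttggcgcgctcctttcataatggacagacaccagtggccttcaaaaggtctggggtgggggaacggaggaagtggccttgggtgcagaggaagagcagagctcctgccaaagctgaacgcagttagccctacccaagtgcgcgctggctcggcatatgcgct
NKX6-1 at +32.6 kb, chr4:84466531-84466830: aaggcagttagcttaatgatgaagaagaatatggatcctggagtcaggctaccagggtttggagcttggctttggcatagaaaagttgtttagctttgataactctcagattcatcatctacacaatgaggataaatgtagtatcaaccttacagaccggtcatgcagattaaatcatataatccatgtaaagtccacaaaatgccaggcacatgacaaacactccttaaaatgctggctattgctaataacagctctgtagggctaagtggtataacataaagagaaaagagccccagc
NKX6-1 at +78.4 kb, chr4:84420726-84421025: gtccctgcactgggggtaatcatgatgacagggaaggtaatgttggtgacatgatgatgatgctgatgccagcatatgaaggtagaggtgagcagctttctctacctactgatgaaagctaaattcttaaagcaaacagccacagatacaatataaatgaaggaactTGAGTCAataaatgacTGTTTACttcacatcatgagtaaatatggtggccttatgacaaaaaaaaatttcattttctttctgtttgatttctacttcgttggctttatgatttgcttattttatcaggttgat
NKX2-2 at +41.1 kb, chr20:21472843-21473142: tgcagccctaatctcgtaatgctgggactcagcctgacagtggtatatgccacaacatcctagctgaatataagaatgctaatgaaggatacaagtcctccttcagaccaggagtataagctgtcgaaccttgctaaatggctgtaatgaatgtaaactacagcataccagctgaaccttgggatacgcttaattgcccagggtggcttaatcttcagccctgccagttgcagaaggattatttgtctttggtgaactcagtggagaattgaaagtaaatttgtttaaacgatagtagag
ISL1 at +15.9 kb, chr5:51399170-51399469: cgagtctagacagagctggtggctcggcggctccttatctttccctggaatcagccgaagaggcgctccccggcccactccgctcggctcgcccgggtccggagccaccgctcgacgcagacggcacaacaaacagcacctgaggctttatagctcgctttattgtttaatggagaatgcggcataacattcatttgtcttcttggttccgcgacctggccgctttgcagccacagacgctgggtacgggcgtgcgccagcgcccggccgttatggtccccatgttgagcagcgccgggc
ISL1 at +28.8 kb, chr5:51412074-51412373: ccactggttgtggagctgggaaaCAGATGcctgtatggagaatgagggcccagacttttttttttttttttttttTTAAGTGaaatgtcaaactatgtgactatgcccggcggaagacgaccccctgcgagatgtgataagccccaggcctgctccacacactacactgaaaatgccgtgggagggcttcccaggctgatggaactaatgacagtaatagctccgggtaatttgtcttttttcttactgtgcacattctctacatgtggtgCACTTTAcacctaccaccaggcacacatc
MNX1 at +17.0 kb, chr7:156993545-156993844: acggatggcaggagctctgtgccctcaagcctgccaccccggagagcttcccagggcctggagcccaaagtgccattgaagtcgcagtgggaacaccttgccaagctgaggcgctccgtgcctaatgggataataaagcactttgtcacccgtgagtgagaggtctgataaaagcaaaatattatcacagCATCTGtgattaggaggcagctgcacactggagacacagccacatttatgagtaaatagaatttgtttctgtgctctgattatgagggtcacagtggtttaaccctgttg

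All 5 genes had open regions within the promoter limit, and none of these 10 regions passed the threshold for a change in either direction. At NKX2-2 no region covered the start site itself, and the edge of the nearest lay 804 bases away. Of the 63 distal regions, 12 were more open in senescent cells and 4 were less open. Of the 12, 6 belonged to ISL1, 4 to NKX6-1 and 1 each to PDX1 and NKX2-2. The 4 that closed belonged to MNX1, which had 2, and to NKX6-1 and ISL1, with 1 each. A region was called when the adjusted p-value of the authors' DESeq2 Wald test was below 0.05 and its fold change exceeded 1.5, which is 0.58 on the log2 scale. Among all promoter regions this called 3.56% as higher and 9.04% as lower in senescent cells, and among all distal regions 17.4% as higher and 10.9% as lower. With only 10 promoter regions and such shares, their lack of calls is not read as a trait of the 5 genes. The shares of the 63 distal regions were 19.0% and 6.35%, near those of all distal regions. In a Wald test of a change beyond 1.5-fold itself, 3 distal regions of the 5 genes were higher and 0 lower. The table does not name the numerator of its fold changes, and senescent over non-senescent cells was assumed. The values are the authors' means over all 6 libraries with a fold change and its standard error, and no value of a single library was at hand, so whether the libraries of the groups overlap could not be seen, the depth of each library is unknown here, and the spread between replicates enters only through the standard error (SE, 3 against 3 libraries). In bulk cells, a region open in more cells and a region more open in each cell cannot be told apart.

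Mean signal is the read count of a region divided by DESeq2 size factors and averaged over the libraries, and because wide regions collect more reads, levels of different regions are compared per kb of region. On this scale the most open region at a promoter of the 5 genes was the upstream region of PDX1, with 2057 normalised reads per kb, which exceeded 96.4% of all promoter regions. Next came the PDX1 region over the start site, with 1839 per kb, and the upstream NKX2-2 region, with 1738. The latter is only 233 bases wide, and its mean signal of 405 exceeded that of 44.2% of all promoter regions. The regions over or just upstream of the start sites of NKX6-1, MNX1 and ISL1 had 1505, 1317 and 1186 per kb. All of them lay above the median of all promoter regions, 507 per kb. The remaining promoter regions, inside the genes, were less open, from 300 to 580 per kb, and most of them lay below that median. No error is given for these mean levels in the table, so their order is a description.

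**Figure D1:**
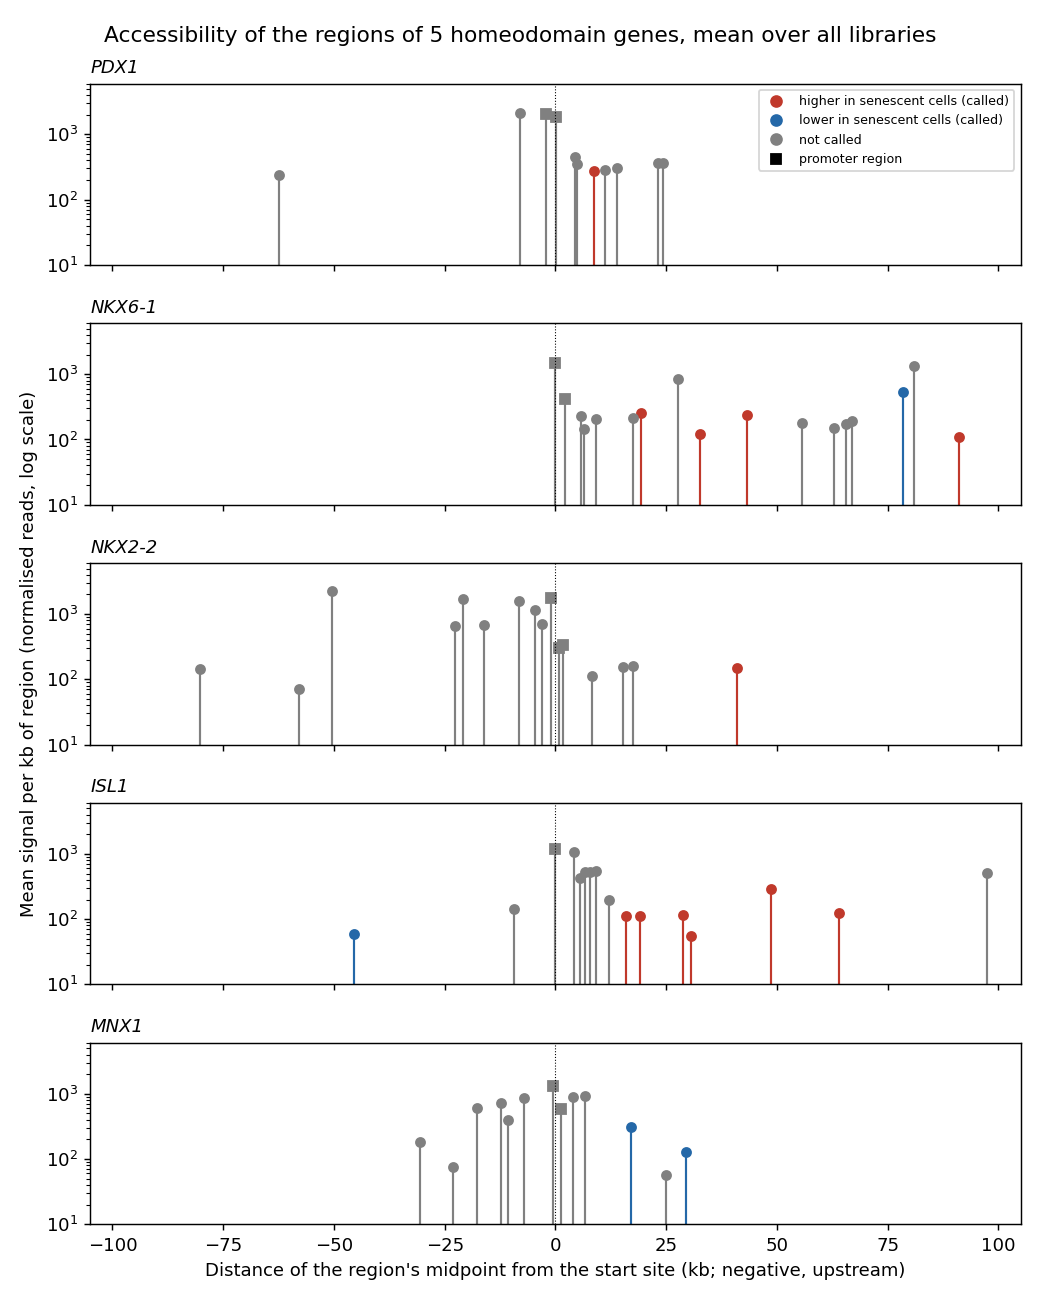
Mean signal per kb of region over all 6 libraries (vertical axis, log scale, normalised reads) for each of the 73 regions, by the distance of the middle of the region from the start site in kb (horizontal axis; negative, upstream), with 1 panel per gene. Squares are promoter regions, circles distal regions, and the colour gives the call; the most open distal regions, near or above 1000 per kb, are grey, and the regions called higher (red) have between 55.8 and 288 per kb.

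The promoter of PDX1 had 2 regions. The upstream one, at −2.2 kb (chr13:27917110-27918519, overlapping the long noncoding RNA gene PLUT), had a mean signal of 2900 and a log2 fold change of senescent over non-senescent cells of 0.05 (SE 0.051, Wald adjusted p = 0.441). PDX1 transcription is known to depend on conserved control areas upstream of the gene, and the printed window of this region holds 1 forkhead string, TGTTTAC, on the minus strand. The region over the start site itself, at 0.1 kb (chr13:27919811-27920446, in the 5′ untranslated exon), had a mean signal of 1170 and a log2 fold change of 0.19 (SE 0.073, Wald adjusted p = 0.0255), a difference larger than its error that stayed far below the 1.5-fold limit.

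For NKX6-1, the region at the start site (−0.1 kb, chr4:84498831-84499911) had a mean signal of 1627 and a log2 fold change of −0.09 (SE 0.062). ISL1 had a single promoter region (−0.1 kb, chr5:51382682-51383919, over an exon of the divergent noncoding gene ISL1-DT), with a mean signal of 1469 and −0.08 (SE 0.061). Both 95% intervals included 0, from −0.22 to 0.03 for NKX6-1 and from −0.20 to 0.04 for ISL1, and lay inside 1.5-fold. The NKX2-2 region nearest upstream (−1.0 kb, chr20:21514997-21515229) had a mean signal of 405 and a log2 fold change of −0.002 (SE 0.104), with an interval from −0.21 to 0.20. The signs of these 3 values turned to plus once a trend of all regions, with GC content or with mean signal, was taken out, so no direction is drawn from them.

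A second NKX2-2 region, inside the gene at 1.8 kb (chr20:21511888-21512658), came closest to a call among the 10. It covers a coding exon and an exon of the antisense gene NKX2-2-AS1, had a mean signal of 255, and was lower by just under 1.5-fold (log2 −0.58, SE 0.127, Wald adjusted p = 2.8e-05), just within the limit. When all fold changes were centred on the median of all regions, a shift of 0.01, this region passed as lower. The remaining NKX2-2 promoter region, in an intron at 0.9 kb, was weak, with a mean signal of 66.9 and a log2 fold change of 0.13 (SE 0.253).

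At MNX1 the main promoter region (−0.5 kb, chr7:157010379-157011967, over an exon of MNX1-AS1) had a mean signal of 2092 and a log2 fold change of 0.14 (SE 0.058, Wald adjusted p = 0.033). The intronic region at 1.2 kb, with a mean signal of 234, went the other way, at −0.33 (SE 0.125, Wald adjusted p = 0.0239). With the adjusted p alone, without the fold limit, 2 of the 10 promoter regions were therefore higher and 2 lower, against 10.2% and 34.7% of all promoter regions. The 95% interval lay wholly inside 1.5-fold for 8 of the 10, the exceptions being the NKX2-2 regions at 0.9 and 1.8 kb, and for 66.2% of all promoter regions.

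**Figure D2:**
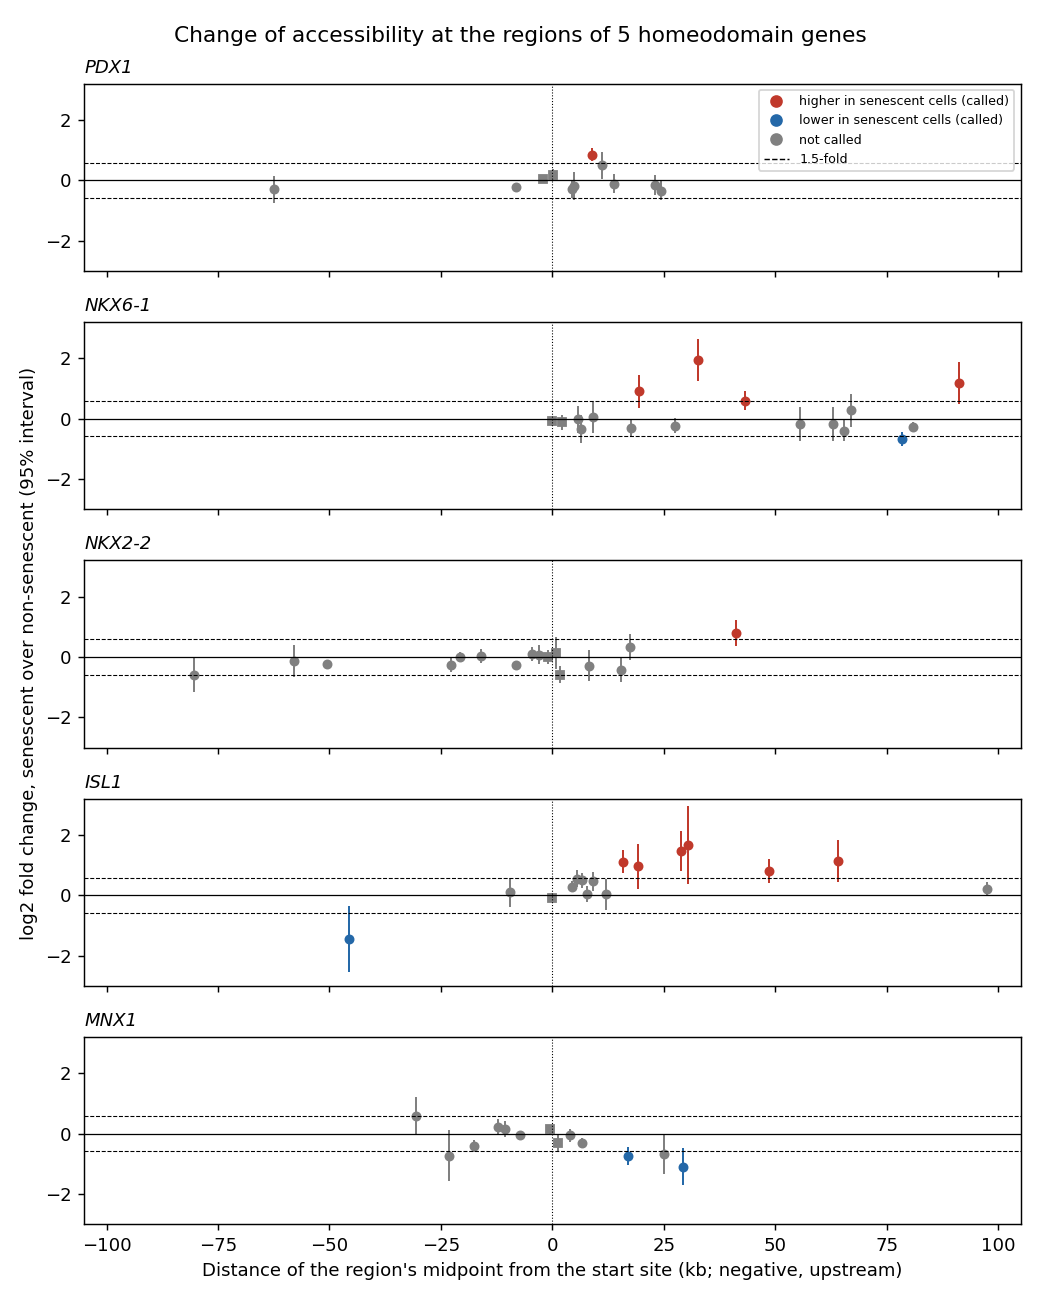
Log2 fold change of senescent over non-senescent cells with its 95% interval (vertical axis) for each of the 73 regions, by distance from the start site in kb (horizontal axis; negative, upstream). Squares are promoter regions, circles distal regions, and broken lines mark 1.5-fold; the squares lie between −0.58 and 0.19, while the called distal regions in red reach 1.94 at NKX6-1 and the blue ones −1.46 at ISL1.

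Among the distal regions of ISL1 most values were positive. Of its 15 regions, 14 had a positive log2 fold change, 6 were called higher and 1 lower, and the median was 0.49, while the median of all distal regions was 0.03. Of the 1196 genes with at least 10 distal regions, 80 (6.69%) had a share called higher at least as large as that of ISL1, which is itself among them. The nearest other protein-coding start sites, those of PARP8 and ITGA1, lie 716 kb and 1404 kb away. Start sites of noncoding genes and pseudogenes lie between, and when they counted too, ISL1 kept 6 of the 15 regions and none of its 6 calls higher, 4 of which went to the pseudogene HMGB1P47. The 5 in introns of ISL1 and the 8 past the end of the gene differed in size of change.

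In the introns of ISL1, mean signals were high, from 177 to 768, and log2 fold changes ran from 0.05 to 0.55. The most open of them, at 4.3 kb (chr5:51387437-51388152), had a mean signal of 768 and a log2 fold change of 0.29 (SE 0.078, Wald adjusted p = 0.00087). In all, 4 of the 5 passed the adjusted p alone as higher and none passed the fold limit.

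Past the end of ISL1, 6 of the 8 regions were called higher, and the 2 that were not are the first and the last. The clearest was the region at 15.9 kb (chr5:51398754-51399886, intergenic), printed above, with a mean signal of 125 and a 2.16-fold rise (log2 1.11, SE 0.178, Wald adjusted p = 6.5e-09). The region at 28.8 kb (chr5:51412034-51412413), also printed, had a mean signal of 43.3 and a log2 fold change of 1.46 (SE 0.327, Wald adjusted p = 4.8e-05). Its window holds 2 matches to TNAAGTG and 1 to the E box CAGATG, whereas the window at 15.9 kb is GC-rich (62.0%) and holds none of the strings. The region at 48.6 kb, with a mean signal of 118, rose by 0.80 (SE 0.181, Wald adjusted p = 6.2e-05).

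The other 3 ISL1 regions called higher were weak, and their errors were wide. At 19.1 kb the mean signal was 28.4 and the log2 fold change 0.96 (SE 0.364, Wald adjusted p = 0.0226). At 30.5 kb, a region of 187 bases with a mean signal of only 10.4, it was 1.67 (SE 0.642, Wald adjusted p = 0.0249), the second largest rise by value and the least certain, with a 95% interval from 0.41 to 2.93. At 64.1 kb, in an intron of a noncoding gene, the mean signal was 31.4 and the log2 fold change 1.13 (SE 0.344, Wald adjusted p = 0.0037). The calls at 19.1 and 30.5 kb were lost once the trend of all regions on mean signal was removed. The same step added calls higher at the intronic regions at 5.6 kb (0.64) and 6.7 kb (0.59), so 6 ISL1 regions were still called higher. With the trend on GC content removed, the region at 6.7 kb was called too (0.66). The difference between introns and regions past the gene thus depends on the fold limit and on these trends.

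Upstream of ISL1 there were 2 distal regions. The far one, at −45.5 kb (chr5:51337846-51338079), was the only ISL1 region called lower, at −1.46 (SE 0.540, Wald adjusted p = 0.0194), but its mean signal was 14.0. The near one, at −9.4 kb, in an exon of ISL1-DT, had a log2 fold change of 0.10 (SE 0.231). With the trend on GC content removed, 11 of the 15 ISL1 regions were positive and 7 were called higher. The last ISL1 region within the 100 kb limit, at 97.4 kb, had a mean signal of 400 and a log2 fold change of 0.20 (SE 0.097), and the first one past the limit, 104.6 kb from the nearest start site of the gene, had a mean signal of 453 and 0.57 (SE 0.10), just below the fold limit.

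NKX6-1 had 15 distal regions, all downstream of its start site and 13 of them intergenic. The region that opened most among all 63 was in this group, at 32.6 kb (chr4:84466495-84466867), with a 3.84-fold rise (log2 1.94, SE 0.339, Wald adjusted p = 1.2e-07) at a mean signal of 44.8. Further calls in this direction lay at 19.4 kb, with a mean signal of 49.7 and a log2 fold change of 0.90 (SE 0.267), and at 91.1 kb, with 33.4 and 1.19 (SE 0.338). The fourth, at 43.3 kb, was stronger in signal, 237, but with 0.60 (SE 0.138, Wald adjusted p = 9.3e-05) it sat just above the fold limit and lost its call when the trend on GC content was removed.

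The 3 distal regions of NKX6-1 with the highest mean signal all had negative values. At 78.4 kb (chr4:84420519-84421232, intergenic), accessibility fell by 1.60-fold (log2 −0.68, SE 0.103, Wald adjusted p = 9.0e-10) at a mean signal of 379. The printed window of this region holds 1 forkhead string and 1 AP-1 string. With the signal trend removed its value was −0.57, inside the fold limit. The neighbouring region at 80.9 kb (chr4:84417901-84418802) was the strongest of the 15, with a mean signal of 1192, and had a log2 fold change of −0.26 (SE 0.067, Wald adjusted p = 0.00037), too small for a call. Nearest to the gene, the coding exon region at 5.8 kb had −0.03 (SE 0.217).

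PDX1 had 9 distal regions, and 1 of them was called. This region, at 8.8 kb (chr13:27927910-27929677), lies past the end of the gene, is 1768 bases wide and had a mean signal of 477, the highest of all called regions of the 5 genes. Its accessibility rose by 1.80-fold (log2 0.85, SE 0.098, Wald adjusted p = 1.5e-16), with a 95% interval from 0.66 to 1.04 that lay wholly above 1.5-fold. The call was kept under each of 7 changes of threshold, centring or trend, which among the called regions held also for the ISL1 region at 15.9 kb and for no other.

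None of the other PDX1 regions around it was called. The next region downstream, at 11.2 kb, had a mean signal of 85.6 and a log2 fold change of 0.50 (SE 0.212, Wald adjusted p = 0.0422), below the fold limit. The strongest distal region of the gene, at −8.1 kb (chr13:27911389-27912367, in an intron of PLUT), had a mean signal of 2098 and −0.24 (SE 0.052, Wald adjusted p = 3.8e-05). With 2143 normalised reads per kb it was more open than 99.4% of all distal regions. The distal region nearest the start site, at 4.4 kb over a coding exon, had −0.30 (SE 0.133, Wald adjusted p = 0.0591).

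At NKX2-2 the open chromatin lay mainly upstream, where 9 of its 13 distal regions were found and none was called. The region at −8.2 kb (chr20:21520922-21523574, in an intron of a noncoding gene) had the highest mean signal of the 63, 4195, and a log2 fold change of −0.27 (SE 0.045, Wald adjusted p = 3.1e-08), a fall larger than its error but only 1.21-fold. A second strong region, at −50.5 kb in an intron of LINC01727, was the most open of the 63 per kb, with 2298 normalised reads, and had −0.25 (SE 0.050). The third, at −20.8 kb over an exon of the noncoding gene BETALINC1, had a mean signal of 1543 and −0.01 (SE 0.070). The distal region nearest the start site, at −3.1 kb and just outside the promoter limit, had a mean signal of 165 and 0.07 (SE 0.148). On the downstream side, the single call was at 41.1 kb (chr20:21472700-21473286), an intergenic region with a mean signal of 86.5 and a 1.72-fold rise (log2 0.78, SE 0.204, Wald adjusted p = 0.00059).

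MNX1 was the one gene of the 5 without a region called higher, and 2 of its 11 distal regions were lower. The region at 17.0 kb (chr7:156993237-156994152), whose last 102 bases overlap the 3′ end of MNX1, fell by 1.68-fold (log2 −0.75, SE 0.130, Wald adjusted p = 1.0e-07) at a mean signal of 285, and the region at 29.4 kb (chr7:156981055-156981393), past the end of the gene, by 2.13-fold (log2 −1.09, SE 0.297, Wald adjusted p = 0.00102) at 42.8. The windows of both hold the E box CAGATG. Of the 5 downstream regions all had negative values, with a median of −0.69, although the one nearest the start site, at 4.0 kb, had only −0.06 (SE 0.088) and turned to plus when either trend was removed.

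Upstream of MNX1, no region passed. The strongest, at −7.2 kb (chr7:157016171-157019547), is 3377 bases wide, had a mean signal of 2940 and a log2 fold change of −0.06 (SE 0.048, Wald adjusted p = 0.326). At −17.6 kb the mean signal was 648 and the log2 fold change −0.40 (SE 0.087, Wald adjusted p = 2.7e-05). In the direction of a rise, the upstream region farthest from the gene, at −30.6 kb, had 0.58 (SE 0.309) at a mean signal of 38.4 and did not pass the adjusted p.

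The regions called higher at the 5 genes were mostly weak ones. Of the 12 distal regions with a mean signal under 50, 7 were higher and 2 lower, of the 41 with 50 to 500, 5 were higher and 2 lower, and of the 10 with 500 or more, none was called. The shares called higher fell in the same order over all distal regions, from 23.0% at a mean signal under 50 to 16.8% from 50 to 500 and 3.82% at 500 or more. The shares called lower did not, at 7.40%, 13.1% and 9.56%. The 10 strongest regions all had 95% intervals inside 1.5-fold, as had 75.2% of the 5763 distal regions with such a signal. Of the 10, 9 had negative values and the median was −0.24, while of the 5763, 64.8% were negative and the median was −0.12. With the signal trend removed, 6 of the 10 were negative. When regions with a mean signal under 50 were left out, 5 distal regions were called higher.

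**Figure D3:**
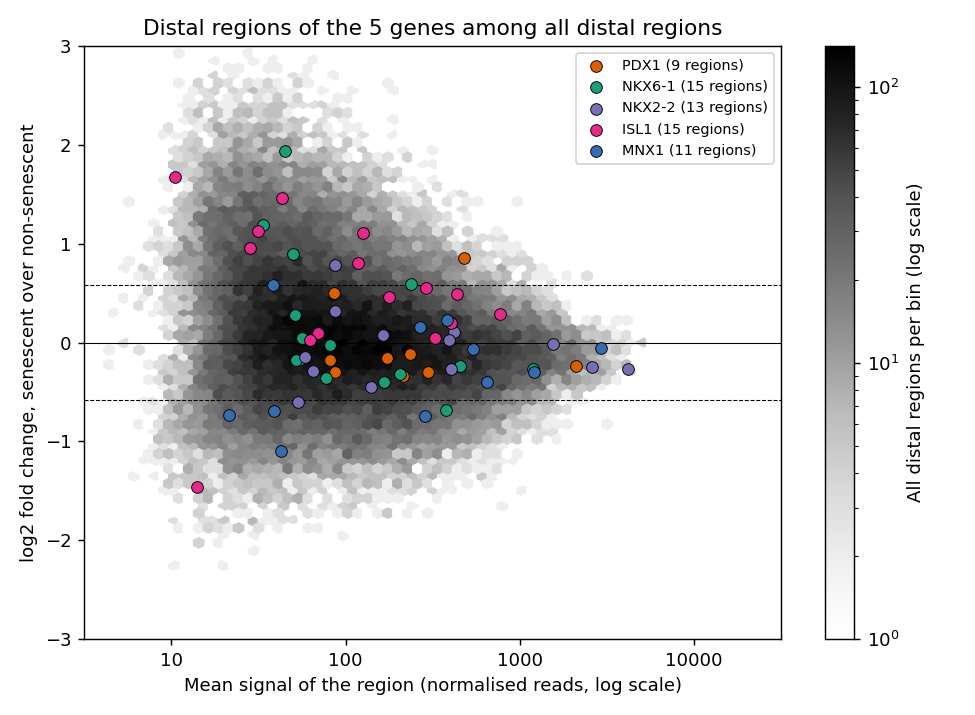
Log2 fold change of senescent over non-senescent cells (vertical axis) against mean signal of the region (horizontal axis, log scale, normalised reads), with all 55158 distal regions as grey hexagons, darker for more regions, and the 63 distal regions of the 5 genes as coloured points. Broken lines mark 1.5-fold; points beyond them become rare to the right, where none of the 10 regions of the 5 genes with a mean signal of 500 or more was called.

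By position, 39 of the 63 distal regions overlapped no annotated gene, 12 overlapped one of the 5 genes and 12 overlapped noncoding genes only. The 39 held 11 calls higher and 3 lower, the 12 at the 5 genes 0 higher and 1 lower, and the 12 in noncoding genes 1 higher and 0 lower. Of all distal regions without a gene, 16.2% were called higher and 10.7% lower. The shares were 18.6% and 11.0% for those that overlapped a protein-coding gene, and 14.0% and 11.0% for those that overlapped other genes only. The 12 regions called higher had a median width of 376 bases and a median of 122 normalised reads per kb, and the 47 not called had 589 bases and 363 per kb. How many regions a gene is given depends on which start sites are used: when those of all annotated genes counted, pseudogenes and noncoding genes included, only 20 of the 63 stayed with the 5 genes, and 4 of these, 3 at NKX6-1 and 1 at PDX1, were higher and 0 lower.

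Without the fold limit, 17 of the 63 distal regions were higher and 14 lower, against 23.0% and 19.7% of all distal regions. Of the 17, 10 belonged to ISL1, and without ISL1 6 of 48 distal regions passed the full call as higher and 3 as lower. By the rule used, many distal regions were assigned to each of the 5 genes. Such counts depend on how far the neighbouring protein-coding genes lie, from 49.3 kb (CDX2, beside PDX1) to 1404 kb (ITGA1, beside ISL1). With the start sites of all genes, NKX2-2 kept 1 distal region and MNX1 kept 0. The ranks that follow are therefore not read as a trait of the genes. The number of distal regions, from 9 for PDX1 to 15 for NKX6-1 and ISL1, exceeded that of at least 88.5% of the 13197 protein-coding genes with any (median 3), and their summed distal signal that of 93.4% for ISL1 to 99.7% for NKX2-2.

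**Figure D4:**
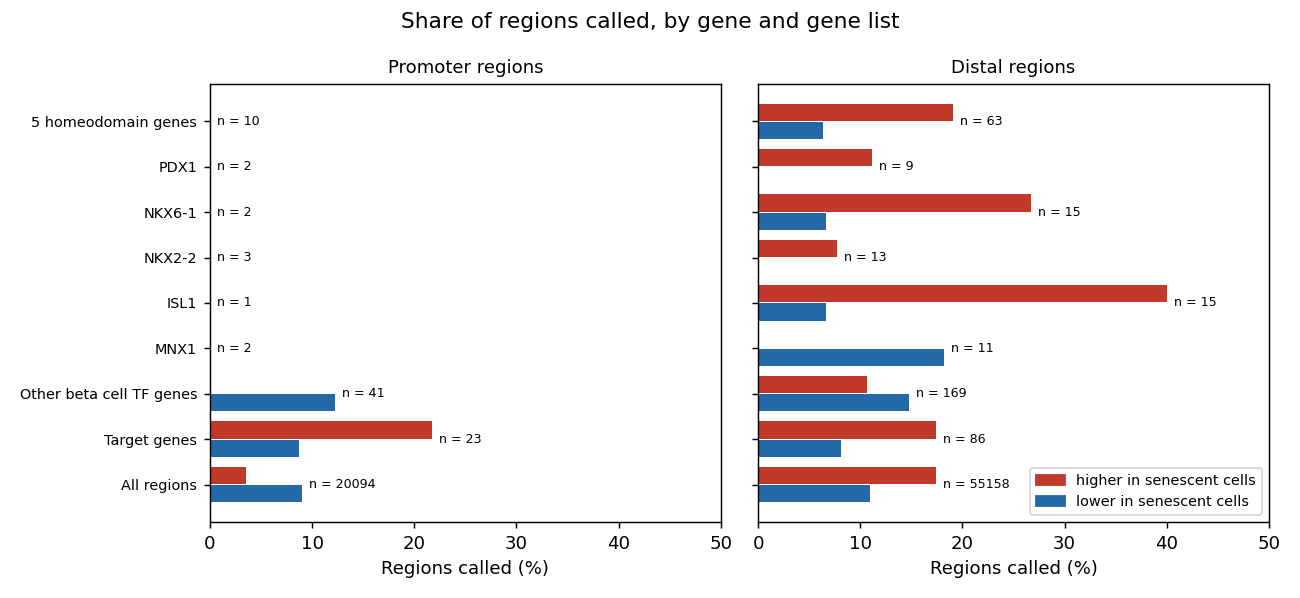
Share of regions called higher (red) and lower (blue) in senescent cells, in percent of the regions of each gene or list, for promoter regions (left) and distal regions (right), with the number of regions beside each bar pair. None of the 10 promoter regions of the 5 genes was called; among distal regions, ISL1 had 6 of 15 called higher and MNX1 none.

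Short sequence strings were counted in the 300-base windows of all regions, as letters and not as bound sites. The homeodomain core TAATTA was found in 3 of the 63 distal windows of the 5 genes (4.76%) and in 9.57% of all distal windows. It occurred in none of the 12 windows called higher, none of the 4 called lower and none of the 10 promoter windows, and 2.39% of all promoter windows held it. One of the 3, the NKX6-1 region at 65.5 kb, had 3 copies. Among all distal regions, those with TAATTA had a lower median GC content (42.4%) than those without (47.6%). The 63 regions had a median of 49.1% and all distal regions 47.0%. The smaller share of TAATTA is therefore not read as a trait of the 5 genes. TNAAGTG, the string of NKX2 factors, was in 15 of the 63 (23.8%) and in 17.8% of all distal windows.

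The other strings were counted in the same 63 distal windows. The forkhead string TGTTTAC was in 3 windows (4.76%, 9.26% of all), the MAF string TGCTGAC in 2 (3.17%, 7.67% of all), the AP-1 string TGANTCA in 5 (7.94%, 11.3% of all) and a CTCF motif in 0 (0.580% of all). The E box CAGATG, which NEUROD1 and related factors bind, was in 18 (28.6%, 32.6% of all), among them 1 of the 12 called higher and 3 of the 4 called lower. Over all distal regions, CAGATG was in 25.1% of the windows called higher, 46.8% of those called lower and 32.3% of those not called. Such a difference was not particular to CAGATG. In windows called higher and lower, the shares were 12.2% and 5.32% for TGCTGAC, 14.9% and 9.92% for TGANTCA and 21.8% and 17.1% for TNAAGTG. They were 11.0% and 10.6% for TAATTA, 8.81% and 11.5% for TGTTTAC and 0.042% and 0.133% for the CTCF motif. Where matches overlap, a base counts in each of them.

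Other transcription factor genes of the beta cell were examined in the same way: MAFA, NEUROD1, PAX6, PAX4, NEUROG3, FOXA1, FOXA2, HNF4A, RFX3, RFX6, GLIS3, INSM1, ST18, ONECUT1, MLXIPL and ESRRG. Of their 41 promoter regions none was called higher and 5 were lower (12.2%), with a median log2 fold change of −0.10. Over all promoter regions 3.56% were higher and 9.04% lower, and the median was −0.13. The falls at a mean signal of 50 or more were at INSM1, a zinc finger factor of endocrine progenitors (−1.22, SE 0.154), and ESRRG, a nuclear receptor of mature beta cells (−0.95, SE 0.144). Their 169 distal regions held 18 calls higher (10.7%) and 25 lower (14.8%), with a median of −0.16. Over all distal regions 17.4% were higher and 10.9% lower, and the median was 0.03. Among the calls with a mean signal of 50 or more, the largest rises were 1.34 (SE 0.277) at GLIS3 and 1.19 (SE 0.264) at ESRRG, and the largest fall was −1.27 (SE 0.282) at ST18. At the same minimum, the largest rise at the 5 homeodomain genes was 1.11, at ISL1.

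Genes that these factors are known to act on in beta cells were taken as a second list: INS, IAPP, SLC2A2, SLC30A8, G6PC2, UCN3, ABCC8, KCNJ11, PCSK1, PCSK2, GLP1R, GIPR and SYT4. Their 23 promoter regions held 5 calls higher (21.7%) and 2 lower (8.70%), with a median of −0.03. Over all promoter regions the shares were 3.56% and 9.04%. The 5 calls higher lay at only 3 genes, so they are not separate cases. Of the 3 regions counted as promoter regions of INS, the insulin gene, the strongest (chr11:2153680-2159212) was 5533 bases wide with a mean signal of 7894. It rose by 1.11 on the log2 scale (SE 0.037). This region counts by its overlap with the 2 kb window, and its change was not assigned between INS and neighbouring genes. The rise is therefore not read as one at the INS start site. The other INS regions had 0.59 (SE 0.115), also called higher, and 0.04 (SE 0.054). A promoter region of SLC2A2, a glucose transporter, rose by 0.89 (SE 0.136), and one of PCSK1, a prohormone convertase, fell by 0.80 (SE 0.060). Among the 86 distal regions 15 were higher (17.4%) and 7 lower (8.14%), with a median of −0.05. Over all distal regions the shares were 17.4% and 10.9%. The largest changes there among calls with a mean signal of 50 or more were −1.74 (SE 0.251) at IAPP, which encodes islet amyloid polypeptide, and 1.66 (SE 0.220) and 1.12 (SE 0.212) at SLC30A8, the zinc transporter of insulin granules. Counts for both lists are a description of the members named.

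The label of the cells was checked at the promoters of cell type genes. All 5 beta cell genes (INS, IAPP, SLC30A8, ABCC8 and G6PC2) had promoter regions, with summed mean signals from 208.5 to 10018. Those of alpha cells (GCG, IRX1, IRX2 and TTR) had them too, from 66.3 at GCG to 1705 at IRX2. Of the acinar genes PTF1A (110) and CPA1 (2101) had regions and PRSS1 had none. Of the duct genes KRT19 (1141) and SOX9 (238) had them and CFTR had none. The delta cell genes SST and HHEX had 195 and 824. The sums at CPA1 and KRT19 exceeded those at IAPP, G6PC2, SLC30A8 and ABCC8. Promoter signal thus did not set the beta cell genes apart from those of other cell types. The strongest promoter region of each gene was then compared between the groups. Of the beta cell genes, INS and IAPP were higher, with 1.11 and 0.63, and SLC30A8 (0.28), ABCC8 (−0.47) and G6PC2 (−0.0014) were not called. The INS value is that of the region of 5533 bases described above, which also gave 7894 of the summed 10018. Its change was not assigned between INS and neighbouring genes. Of the alpha cell genes, TTR was higher, with 0.71 (SE 0.102), and IRX1 (−0.21), GCG (−0.02) and IRX2 (0.01) were not called. Both delta cell genes were lower, SST at −1.08 (SE 0.161) and HHEX at −0.87 (SE 0.092). SOX9 was lower, at −0.59 (SE 0.166), and KRT19 (−0.37), PTF1A (−0.29) and CPA1 (−0.19) were not called. The part of such differences in the changes at the 5 homeodomain genes was not tested.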

How the data were processed

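ATAC-seq of 3 senescent and 3 non-senescent EndoC-βH3 libraries was analysed from 1 deposited table. For their pipeline, the authors name Trim Galore for trimming, Bowtie2 for alignment to hg38, Picard for the removal of duplicates (mitochondrial reads were dropped too), deepTools for the Tn5 shift, MACS2 for peaks, and DESeq2 for the comparison of reads counted in the merged peaks of all libraries. The version of DESeq2 is not given in the sources used here. The deposited mean signal is the average over libraries of counts divided by size factors. The deposited log2 fold change, its standard error, the Wald score and the p-value with its adjusted value come from the authors. A check showed that score, p-value and Benjamini-Hochberg adjustment over all 108542 regions follow from each other. 0 regions lacked an adjusted value. The mean signal is not divided by region length, so wide regions collect more reads and have smaller errors.

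The table names no numerator. The senescent group was assumed here, because the study shows its changes that way round and because the MKI67 promoter, a cell cycle gene, has a negative value. No test was run anew on replicates, because no values per library were used. Calls needed an adjusted p under 0.05 and a fold change over 1.5; 95% intervals are 1.96 standard errors. Start sites came from GENCODE 44 and sequences from hg38, with Python 3.11.15, pandas 2.3.3 and pysam 0.24.0; the steps were tested on simulated data. Some genes and 1 string of the lists are not reported here and were left out of the counts. The regions, gene lists and strings were chosen with earlier results of these data known. Named regions were every called region of the 5 genes and, for promoter and distal regions of each gene, the strongest and the nearest; of the other lists, the 3 largest changes among calls whose mean signal reached 50. The promoter regions of NKX2-2 at 1.8 kb and MNX1 at 1.2 kb, the ISL1 regions at −9.4, 5.6 and 6.7 kb, the PDX1 region at 11.2 kb, the NKX2-2 regions at −20.8 and −50.5 kb, the NKX6-1 region at 65.5 kb and the MNX1 regions at −17.6 and −30.6 kb were named after their values were seen. Alternatives changed the p threshold, the fold limit, the test, a signal filter, centring, trends on signal and GC content, the promoter window, the distal limit and the start sites.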

Additional observations from a re-analysis of the deposited data

How the results depend on the processing

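No paired analysis was possible because single libraries have no column in the deposited table, and likewise no fit with the replicate block and none that leaves out a library was run. The counts for the 5 genes moved by more than 1.5 times in these cases. Without the fold limit, 2 promoter regions were higher and 2 lower, and 14 distal regions were lower. Centring gave 1 promoter region lower. The Wald test of a change over 1.5-fold gave 3 distal regions higher and 0 lower, the signal minimum 5 higher, and start sites of all genes 4 higher and 0 lower. For the other transcription factor genes, promoter calls higher (0) became 1 with the GC trend removed and 2 without the fold limit, promoter calls lower (5) became 3 at an adjusted p under 0.01, 15 without the limit, 1 by the Wald test, 2 with the signal minimum, 3 with the promoter cut to 1 kb and 2 with it cut to 0.5 kb, distal calls higher (18) became 4 by the Wald test and 10 within 50 kb, and distal calls lower (25) became 54 without the limit, 5 by the Wald test and 16 with all start sites. For the target genes, promoter calls higher (5) became 8 without the limit, 1 by the Wald test, 3 in 1 kb and 2 in 0.5 kb, promoter calls lower (2) became 1 with the signal trend removed, 9 without the limit and 1 by the Wald test, distal calls higher (15) became 5 by the Wald test and 5 with all start sites, and distal calls lower (7) became 11 with the GC trend removed, 18 without the limit and 1 by the Wald test. In 74 other cases a count stayed within 1.5 times. Narrower promoter windows, the 50 kb limit and the start sites of all genes also leave fewer regions, so a smaller count need not be a smaller share. With all start sites, the 5 genes had 20 distal regions instead of 63. The other transcription factor genes had 117 instead of 169, and the target genes 50 instead of 86. Among single regions, signs turned in 11 of 96 cases, with the signal and the GC trend removed in turn: NKX6-1 at −0.1 kb (0.027 and 0.040), NKX2-2 at −1.0 kb (0.11 and 0.14), ISL1 at −0.1 kb (0.040 and 0.064), MNX1 at 4.0 kb (0.065 and 0.10), MNX1 at −7.2 kb (0.039 and 0.071), and NKX6-1 at 5.8 kb with the GC trend alone (0.12). A further 4 lost their call in the same direction: NKX6-1 at 78.4 kb (−0.57), ISL1 at 19.1 kb (0.68) and ISL1 at 30.5 kb (1.28) with the signal trend removed, and NKX6-1 at 43.3 kb (0.37) with the GC trend removed. The signal trend ran from −0.14 to 0.73 and the GC trend from −0.21 to 0.32 in log2 fold change, and the cause of these trends was not tested. Weak regions have the widest errors, with SEs up to 0.642 among the distal regions of the 5 genes, so a change of 1.5-fold was not detectable at every one of them.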
